A study of Drosophila melanogaster with 46 samples.

Results

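The ageing of control (C) Drosophila melanogaster on optimal food was followed on 8 of the 46 arrays of a study of lifespan, 4 of old flies and 4 of middle-aged flies, chosen by their labels for line, food and age class alone. Each array read the RNA of a pool of 5 whole virgin females. Flies were called old when 10% of their cohort was alive and middle-aged when 90% was alive, so the classes are set by survival and not by days. C is the unselected control of a starvation-resistant, long-lived line (SR), a single line of each was used, and both kinds of pool ate food at 2 times the standard concentration after a larval life on standard medium. Further pairs of age classes serve below as comparisons, namely SR flies on optimal food (4 old and 4 middle-aged arrays), and C flies on malnutrition (0.5 times the standard, 3 and 4 arrays) and on overfeeding (5 times, 3 and 4 arrays). Since all C pools came from a single line, p-values measure the spread between pools and not between lines.

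As a fruit fly ages, its muscles and gut lose function, its gut lining becomes leaky, and defence and repair genes change in activity. Old females also lay fewer eggs, and the ovary, which makes up much of a young female, holds large amounts of RNA for the embryo, including that of the machinery of transcription, chromatin and DNA repair. Immune, germline and cell cycle genes are set aside here, and the description below is of the other genes.

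Values are log2 expression levels of probe sets, most of which are annotated to a single gene, and a difference of 1 on this scale is a fold of 2.0. Differences are old minus middle-aged and stand with their standard error, and p-values are those of limma, fitted across all arrays and adjusted over all 18952 probe sets. A gene with an adjusted p under 0.05 is said to have changed. Fewer cells of a type and less RNA per cell cannot be told apart in whole flies. Old flies were the last survivors of their cohort, so change within flies cannot be told apart from the earlier death of other flies.

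The old pools were less alike than the middle-aged ones. Over 9743 probe sets with a mean of at least 5, the median standard deviation was 0.218 between the old arrays and 0.136 between the middle-aged arrays, and 74.6% of these probe sets had the higher standard deviation in old flies (63.3% without old replicate 3). Correlations across all probe sets ran from 0.9839 to 0.9925 between old arrays and from 0.9919 to 0.9966 between middle-aged arrays. On the first principal component of the 8 arrays, with 55.0% of the variance, the old arrays scored 0.0585, 0.0906, 0.364 and 0.271, and the middle-aged arrays scored -0.202, -0.25, -0.142 and -0.19. The mean of 69 germline genes on each array moved with age as well, at 8.22 in old replicate 3 and 8.41 to 8.66 in the other old pools, against 8.83 to 8.95 in middle-aged pools. The mean of 53 genes of neurons was 6.03 in old replicate 3 and 5.65 to 5.74 in the other old pools, against 5.55 to 5.69 in middle-aged pools. What these shifts contribute to the changes below was not tested, so counts are also given without old replicate 3.

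**Figure D1:**
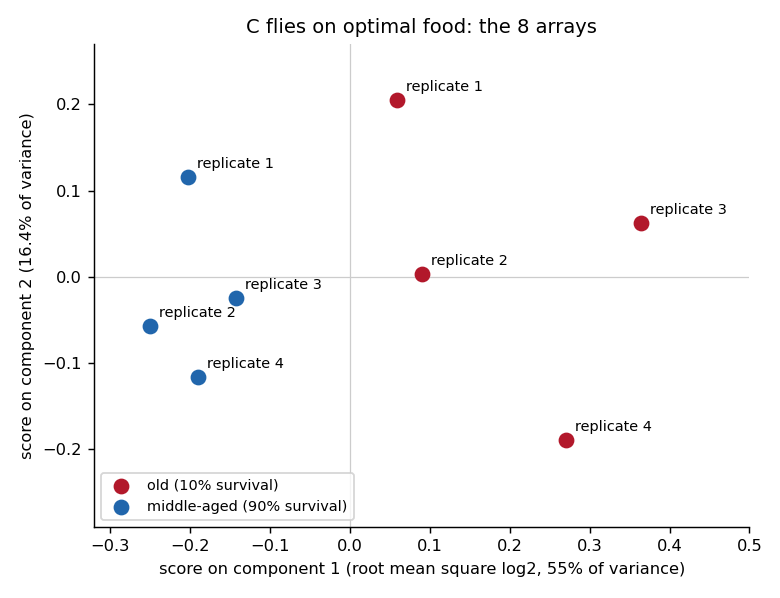
Scores of the 8 arrays on their first 2 principal components (55.0% and 16.4% of the variance, in log2 units), 1 point per pool, with old and middle-aged pools in separate colours and their replicate numbers beside them. The old pools lie at 0.0585 to 0.364 on the first component and the middle-aged pools at -0.25 to -0.142, and old replicate 3 lies farthest to the right.

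Old and middle-aged flies differed in 34.0% of the genes that could be named. Of 11982 genes, 1493 (12.5%) were higher and 2580 (21.5%) lower in old flies. Fewer genes rose than fell, but the rises were larger: their median was 0.74, against -0.44 for the falls. Changes of at least 1 were seen in 395 genes that rose and 7 that fell, and changes of at least 2 in 38 and 0 genes. The largest rise was 4.95 and the largest fall -1.41. Of the 18952 probe sets, named or not, 4936 were called. Without old replicate 3, 1594 genes (13.3%) were called, 795 higher (6.63%) and 799 lower (6.67%), and 1580 of them were among the 4073 called with all arrays and ran the same way. The split rests on the scaling too. The median over all genes was -0.04, but -0.23 when each array was centred on the mean of the neuron list (neuron centring below). It was 0.03 when each array was centred on its median over the 9743 probe sets with a mean of at least 5. Centring on array medians has this meaning below. The share of called probe sets that were higher was 37.5%, 22.3% and 50.9% under these scalings. In a fit of only the C arrays on optimal food, with the deposited scaling, 3630 probe sets were called and 46.5% of them were higher. Of the groups set aside, 32 of 59 immune genes were higher and 2 lower (24 and 0 without old replicate 3), 1 of 69 germline genes was higher and 43 lower (1 and 9), 0 of 74 genes of DNA replication and cell division were higher and 68 lower (0 and 30), and of 19 chorion and vitelline membrane genes 1 was lower.

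**Figure D2:**
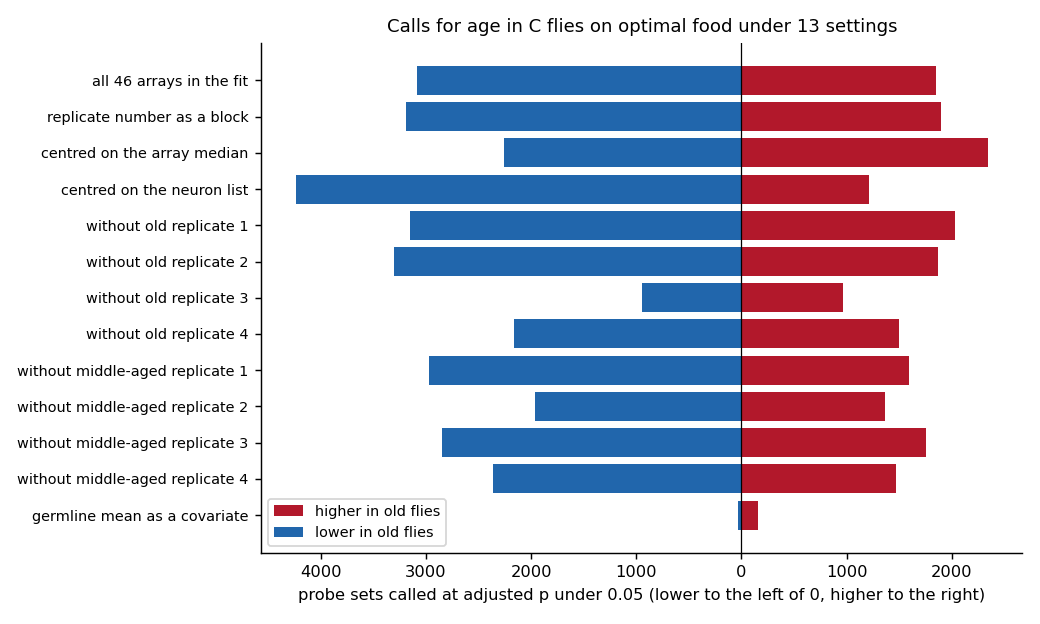
Number of probe sets called in C flies on optimal food under 13 settings, 1 row each, with those lower in old flies drawn to the left of 0 and those higher to the right. With all 46 arrays in the fit 1850 were higher and 3086 lower, without old replicate 3 the bars are 963 and 942, and with the germline mean as a covariate 155 and 29.

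With all arrays and the deposited scaling, whether a gene rose or fell went with its level. The counts in this paragraph were not taken without old replicate 3, where 795 of all genes were higher and 799 lower. They were not taken under the other scalings either. When the genes were ranked by mean level and split into 3 classes of 3994, the class of highest level (log2 8.56 and above) had 1650 genes lower and 480 higher in old flies. In the class between log2 4.91 and 8.56, 875 were lower and 883 higher, and in the class below, where the arrays resolve little, 55 were lower and 130 higher. The chromosome arms differed less: of the 1873 genes on X 204 were higher and 450 lower, and on 2L, 2R, 3L and 3R between 11.6% and 14.8% of genes were higher and between 20.9% and 21.6% lower. Of the 65 genes of the small chromosome 4, 5 were higher and 8 lower. Among genes with a mean of at least 5, the longest of 3 classes by gene length (4362 bases and more) had 23.6% lower and 19.8% higher, against 33.0% lower and 15.8% higher in the shortest class (up to 1822 bases). The class between had the most falls, 39.6% lower and 15.6% higher, so the share of falls did not run steadily with length.

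The largest single changes outside the immune genes were all rises. CG14499, a gene of unknown function, read 10.83, 11.06, 12.50 and 11.45 in old flies, against 5.70, 5.66, 5.84 and 8.84 in middle-aged flies. Middle-aged replicate 4 lay well above the other middle-aged pools but below every old one, and the difference was 4.95 ± 0.55 (adjusted p = 1.48e-07 from limma). CG43133, also of unknown function, read 8.78, 7.63, 8.99 and 8.18 in old flies, against 5.23, 4.90, 5.41 and 5.37 in middle-aged flies, a rise of 3.17 ± 0.38 (adjusted p = 6.25e-07). Npc2e, of the Niemann-Pick type C2 family of sterol-binding proteins, read 8.28, 8.69, 9.37 and 11.15 in old flies, against 5.46, 5.82, 4.93 and 7.15 in middle-aged flies. Replicate 4 was the highest pool of both ages for this gene, and the fold was 11.6 (adjusted p = 1.16e-06). Of the 8 measured Npc2 genes 3 rose and 0 fell, with a median of 0.67 (1 without old replicate 3). Mur29B, a mucin-related gene, rose 6.69-fold and Takl1, a relative of the kinase gene Tak1, 3.57-fold, while Cpr62Bb, a cuticle protein, rose 2.66-fold. Cpr62Bb was unusual in its list: of 114 cuticle protein genes, 65 of which stayed under 5 on all arrays, 10 rose and 1 fell.

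Muscle genes rose in C flies. Of 32 measured genes of muscle and the sarcomere 16 were higher and 0 lower in old flies (10 and 0 without old replicate 3), and the list's median was 0.58. Its mean per array was 9.12 to 9.79 in old pools, against 8.62 to 8.95 in middle-aged pools. Act88F, the actin of the indirect flight muscle, led the list. It read 10.51, 10.17, 11.58 and 11.00 in old flies, against 7.95, 7.89, 9.34 and 8.44 in middle-aged flies. Replicate 3 was the highest pool at each age and the ages did not overlap. The rise was 2.41 ± 0.35, a fold of 5.31 (adjusted p = 1.57e-05 from limma). TpnC73F, a troponin C that senses calcium, read 9.25, 8.67, 9.66 and 9.20 in old flies, against 8.09, 7.70, 8.0 and 7.69 in middle-aged flies, a difference of 1.33 ± 0.26 (adjusted p = 0.000572). A second probe set of TpnC73F was not called. Mlc2, the regulatory light chain of myosin, rose 2.12-fold and Tm2, a tropomyosin, 2.03-fold.

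Genes of the extracellular matrix rose as well. Of 31 genes of the basement membrane and its integrin receptors 17 were higher and 0 lower (9 and 0 without old replicate 3), with a median of 0.51 and list means of 7.91 to 8.38 in old pools, against 7.43 to 7.61 in middle-aged pools. The integrin alpha chain gene scb read 8.06, 7.38, 8.69 and 8.21 in old flies, against 6.53, 6.64, 6.84 and 6.50 in middle-aged flies, a fold of 2.75 (adjusted p = 8.54e-06 from limma). Tig, a matrix ligand of integrins found at muscle attachments, read 7.57, 7.23, 7.75 and 7.63 in old flies, against 6.26, 6.01, 6.25 and 6.19 in middle-aged flies. The old pools lay close together and about 1 unit above the middle-aged ones, a difference of 1.37 ± 0.23 (adjusted p = 8.1e-05). PH4alphaEFB, which hydroxylates collagen chains, rose by 1.16 ± 0.24. The metalloprotease gene tok, a relative of tolloid, read 8.34, 8.45, 9.22 and 8.82 in old flies, against 7.0, 7.15, 7.53 and 7.25 in middle-aged flies, a fold of 2.78 (adjusted p = 4.46e-05). Of the 22 genes of TGF-beta and BMP signalling, where tok was counted, 4 rose and 4 fell (1 and 1 without old replicate 3, 2 and 3 without middle-aged replicate 4, 2 and 6 with the neuron centring).

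Junction genes moved in both directions: of 33 genes of septate and adherens junctions 9 rose and 7 fell (7 and 10 with the neuron centring), with a median of -0.01. Those that rose included Tsp2A, Ssk and mesh, genes of the smooth septate junction, the barrier between cells of the midgut and the Malpighian tubules. Tsp2A, a tetraspanin, read 8.72, 9.03, 10.21 and 9.58 in old flies, against 7.51, 7.87, 8.03 and 8.19 in middle-aged flies. The transmembrane gene Ssk read 10.72, 11.06, 11.98 and 11.48 in old flies, against 9.75, 9.97, 10.42 and 10.30 in middle-aged flies. For both genes old replicate 3 was highest and no old pool fell within the middle-aged range, and the differences were 1.48 ± 0.26 and 1.20 ± 0.25 (adjusted p = 0.000129 and 0.00126 from limma). The gene mesh rose by 1.54 ± 0.28, although its second probe set was not called. Outside the gut type, cora, a cytoskeletal partner of the septate junction in ectodermal epithelia, rose by 1.13 ± 0.19. Without old replicate 3 the list held 6 genes that rose and 2 that fell, and without middle-aged replicate 2 or 4 it held 6 that rose and 3 or 4 that fell. Of 36 genes of the actin and spectrin cytoskeleton 11 rose and 1 fell (5 and 0 without old replicate 3), although the list's median of 0.04 turned to -0.16 with arrays centred on the neuron list. Arpc3B, a subunit of the Arp2/3 complex that nucleates branched actin, read 7.90, 7.92, 8.97 and 8.55 in old flies, against 6.90, 6.81, 6.99 and 7.03 in middle-aged flies, a fold of 2.65 (adjusted p = 3.76e-05). Gel, which severs actin filaments, rose 1.88-fold.

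Some markers of several somatic cell types were higher in old flies. Among all genes 12.5% were higher, and 6.63% without old replicate 3. Of 17 haemocyte genes 8 rose and 0 fell (4 without old replicate 3), and their mean was 6.09 to 6.29 in old pools, against 5.72 to 5.84 in middle-aged pools. Sr-CI, a scavenger receptor of blood cells, read 6.07, 6.28, 6.34 and 6.72 in old flies, against 4.99, 4.88, 5.41 and 5.21 in middle-aged flies (adjusted p = 0.00362). The phagocytosis receptor gene NimC1 rose 2.11-fold, and srp, the GATA factor of haemocytes and fat body, 1.85-fold. Among 12 glial genes 5 rose and 0 fell (2 without old replicate 3), led by moody, a receptor of the glia of the blood-brain barrier (1.13 ± 0.20), and Gs2, a glutamine synthetase (1.01 ± 0.23). In the Malpighian tubules, the renal organ, 10 of 21 genes rose and 0 fell, among them Nep2, a neprilysin peptidase, which rose by 1.0 ± 0.21. That count was 1 without old replicate 3, near the share of all genes, and 5 without old replicate 4 or middle-aged replicate 2. Midgut cells had 5 genes higher and 1 lower of 15 (1 and 0 without old replicate 3, again near the share of all genes). The gut GATA factor GATAe rose by 0.99 ± 0.24. Of 53 genes of neurons 5 were higher and 0 lower (9.43% called), a smaller share than the 12.5% of all genes that were higher. Of the 53, 17 stayed under 5 on all arrays. The calcium channel gene cac rose by 1.01 ± 0.22, though a second probe set was not called, and the count was 2 without old replicate 3 and 3 without middle-aged replicate 2.

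Send1 and Ser12, serine proteases that are active in the spermathecae, the sperm storage organs of the female, also rose. Send1 read 8.29, 8.83, 9.82 and 9.30 in old flies, against 7.57, 7.37, 8.30 and 6.62 in middle-aged flies. Middle-aged replicate 3 lay just above old replicate 1, so the ages overlapped, and the difference was 1.59 ± 0.36 (adjusted p = 0.00245 from limma). Ser12 read 8.65, 8.62, 9.69 and 9.15 in old flies, against 7.26, 7.27, 8.02 and 7.27 in middle-aged flies, and rose 2.97-fold. Of the 8 genes of spermathecae and reproductive tract 3 rose and 1 fell. The photoreceptor and phototransduction list was mixed, with 7 of 27 genes higher and 2 lower. The counts were 0 and 1 without old replicate 3, and 3 and 1 without middle-aged replicate 2 or 4. The gene ninaD, a receptor that takes up carotenoids for the visual pigment, read 3.95, 3.88, 3.71 and 3.82 in old flies, against 4.36, 5.13, 4.54 and 5.20 in middle-aged flies. All old values were near the low end of the arrays' scale, and the difference was -0.97 ± 0.22 (adjusted p = 0.00244). Whole flies do not show in which tissue ninaD fell. Fat body and oenocyte genes had 3 of 19 higher and 0 lower, and tracheal genes 2 and 1 of 12. Neuropeptide genes had 9 of 34 higher and 0 lower, but 0 and 0 without old replicate 3, 4 higher without middle-aged replicate 2 and 5 without old replicate 4 or middle-aged replicate 1.

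**Figure D3:**
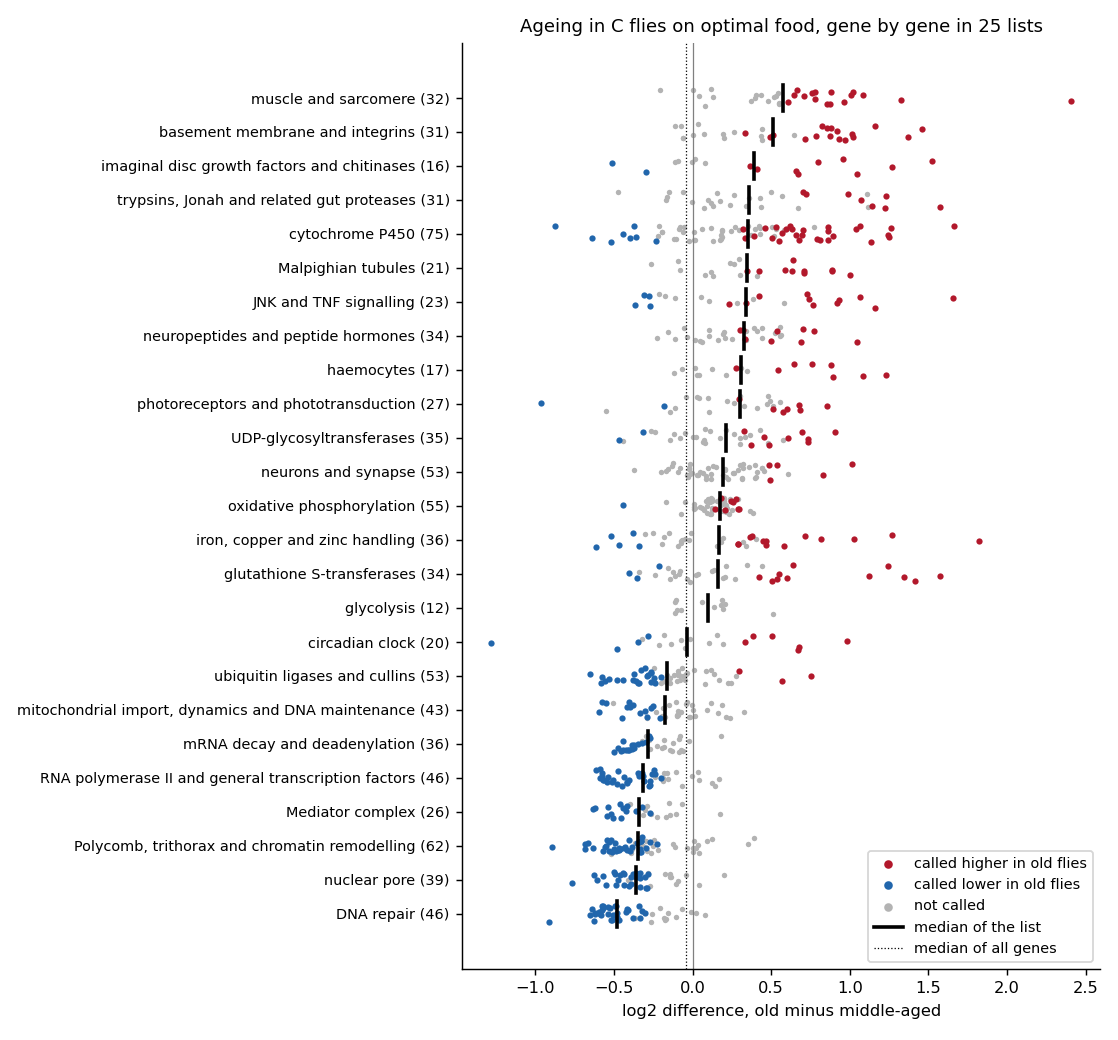
Log2 difference, old minus middle-aged, of every measured gene in 25 lists (1 point per gene, the number of genes in parentheses), with called genes in colour, a black bar at each list's median and a dotted line at the median of all genes. Muscle (16 of 32 higher, median 0.58) and basement membrane genes (17 of 31 higher, median 0.51) lie at the top, and DNA repair genes (32 of 46 lower, median -0.48) at the bottom.

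Of 75 cytochrome P450 genes, which oxidise toxins, hormones and fatty acids, 28 were higher and 8 lower (15 and 2 without old replicate 3, 18 and 4 without middle-aged replicate 2), with a median of 0.35. Cyp4p3 read 7.62, 7.59, 8.33 and 8.06 in old flies, against 6.47, 5.91, 6.62 and 5.96 in middle-aged flies. The ages were separated by about 1 unit and the fold was 3.17 (adjusted p = 3.19e-06 from limma). Cyp4d21 ran the other way, at 4.32, 4.11, 3.91 and 4.14 in old flies, against 5.25, 3.88, 5.48 and 5.37 in middle-aged flies, where replicate 2 lay below all old pools. Its difference was -0.88 ± 0.24 (adjusted p = 0.00768), and it was not called in a fit of only the 8 arrays. Of 34 glutathione S-transferase genes 11 rose and 3 fell (7 and 0 without old replicate 3), and the median of 0.16 became -0.03 with arrays centred on the neuron list. GstD2 read 7.27, 7.06, 8.11 and 7.05 in old flies, against 5.57, 5.82, 5.86 and 5.95 in middle-aged flies, a rise of 1.57 ± 0.24 (adjusted p = 3.13e-05). GstD5, its neighbour in the same gene cluster, rose 2.67-fold, and since GstD genes are much alike in sequence their probes may share signal. Glycosyltransferases of the Ugt family had 9 of 35 higher and 2 lower (5 and 0 without old replicate 3, 6 and 1 without middle-aged replicate 2), but 3 higher and 5 lower with arrays centred on the neuron list, and Ugt36A1 rose only 1.37-fold, a rise not called under that centring. Antioxidant enzymes had 3 of 20 higher and 1 lower (0 and 1 without old replicate 3, 1 and 2 with the neuron centring), with a median of -0.01.

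Metal handling genes changed on both sides. Of 36 genes for iron, copper and zinc 13 rose and 5 fell (5 and 3 without old replicate 3), but 6 rose and 8 fell with arrays centred on the neuron list and 16 and 4 with arrays centred on their medians. MtnB, a metallothionein that binds copper, read 8.58, 9.58, 9.54 and 10.62 in old flies, against 8.40, 7.59, 7.61 and 7.44 in middle-aged flies. Replicate 1 showed almost no gap between the ages while the other numbers did, and the fold was 3.53 (adjusted p = 0.00194 from limma). MtnD, another metallothionein, rose 2.41-fold. Ctr1A, which imports copper into cells, read 7.25, 7.63, 7.66 and 7.51 in old flies, against 7.62, 8.36, 8.21 and 8.30 in middle-aged flies, and fell by 0.61 on the log2 scale (adjusted p = 0.00742), with old replicates 2 and 3 just above middle-aged replicate 1. The transporters of organic anions and sugars split into 11 higher and 7 lower of 39 (2 and 3 without old replicate 3, 7 and 3 without old replicate 4, 5 and 7 with the neuron centring).

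Among the imaginal disc growth factors, secreted relatives of chitinases, and the chitinases themselves, 9 of 16 genes rose and 2 fell (5 and 0 without old replicate 3, 6 and 1 without middle-aged replicate 2). Idgf1 read 9.63, 9.59, 9.97 and 9.72 in old flies, against 8.08, 7.86, 8.68 and 8.21 in middle-aged flies. Old pools spanned a narrow range and the difference was 1.52 ± 0.27 (adjusted p = 0.000167 from limma). Idgf3 rose 2.41-fold, and its second probe set rose too.

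Of 23 genes of JNK and TNF signalling, a pathway of wound healing and stress, 11 were higher and 4 lower (7 and 0 without old replicate 3), with a median of 0.34. The stress kinase gene p38c read 6.70, 6.67, 7.80 and 7.30 in old flies, against 5.11, 5.71, 5.51 and 5.52 in middle-aged flies. No old pool came near the middle-aged range, and the fold was 3.15 (adjusted p = 2.48e-05 from limma). The gene scaf, a target of JNK in the embryo, rose by 1.16 ± 0.21, kay, which encodes Fos, by 1.06 ± 0.22 (a second probe set was not called), and the transcription factor gene Atf3 by 0.93 ± 0.21. Of 16 genes of apoptosis 1 rose and 6 fell (1 and 3 without old replicate 3). The one that rose, Damm, a caspase gene, read 8.38, 8.66, 9.65 and 9.21 in old flies, against 7.22, 7.07, 7.34 and 7.45 in middle-aged flies (adjusted p = 0.00503). Dronc, the initiator caspase, and Dcp-1, an effector caspase, differed by -0.58 ± 0.15 and -0.56 ± 0.13 and fell in old flies.

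Digestive genes varied between pools. Of 31 trypsins, Jonah genes and related proteases of the gut 8 rose and 0 fell, with a median of 0.36, but the count was 2 without old replicate 4, 3 without old replicate 3, 4 without middle-aged replicate 1 or 2 and 5 without old replicate 2. The list was drawn up by gene name, so the 8 include Ser12, described above as active in the spermathecae. The trypsin gene etaTry read 6.93, 7.04, 8.32 and 7.77 in old flies, against 6.13, 6.07, 6.45 and 6.50 in middle-aged flies (adjusted p = 0.00161 from limma). Mal-A4, a maltase, read 7.93, 10.25, 8.85 and 9.65 in old flies, against 7.27, 7.58, 7.75 and 7.37 in middle-aged flies. The old pools differed by more than 2 units among themselves, and the fold was 3.2 (adjusted p = 0.00115). Of 13 maltases and amylases 2 rose (4 without old replicate 1, 1 without old replicate 2 or middle-aged replicate 2) and 0 fell. Lipases went both ways, with 4 of 30 higher and 1 lower (2 and 1 without old replicate 3, 3 and 0 without middle-aged replicate 4, 3 and 4 with the neuron centring). Lip4 read 8.28, 8.34, 8.76 and 8.18 in old flies, against 6.77, 6.97, 7.14 and 7.0 in middle-aged flies, and rose 2.68-fold. The one that fell was mag, the main gut lipase, at 8.24, 8.76, 9.34 and 9.13 in old flies, against 9.61, 9.86, 10.03 and 9.97 in middle-aged flies. Its fall of -1.0 ± 0.34 had an adjusted p of 0.0288, and the call was lost without any one of old replicates 1 and 2 and middle-aged replicates 2, 3 and 4 (adjusted p up to 0.11) and with arrays centred on their medians.

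None of 12 glycolysis genes was called by limma (0 at an unadjusted p under 0.05), and the median of 0.10 turned to -0.09 with arrays centred on the neuron list. Eno, the enolase gene, read 12.54, 12.52, 12.29 and 12.28 in old flies, against 12.53, 12.52, 12.48 and 12.56 in middle-aged flies (difference -0.11 ± 0.08, adjusted p = 0.299), and Tpi, triose phosphate isomerase, differed by -0.11 ± 0.06 (adjusted p = 0.196). Of 55 genes of oxidative phosphorylation 8 rose and 1 fell, but 23 rose and 0 fell with arrays centred on their medians, and 0 rose and 1 fell with centring on the neuron list. The number called was 21 without old replicate 1 and between 1 and 5 without any one of the other arrays, and the median of 0.17 was -0.02 with the neuron centring. The cytochrome c oxidase subunit gene cype read 12.45, 12.36, 12.44 and 12.58 in old flies, against 12.23, 12.10, 12.15 and 12.18 in middle-aged flies. Its small rise, 1.22-fold, was not called with the neuron centring. Of 28 genes of fat synthesis and storage 6 rose and 2 fell (3 and 0 without old replicate 3, 4 and 1 without old replicate 4), among them Lpin, a phosphatidate phosphatase, which rose 1.66-fold, while the list's median of 0.13 turned to -0.06 with arrays centred on the neuron list. Apoltp, whose product loads lipid onto lipophorin in the blood, rose 2.28-fold. Of the 16 yolk, storage and lipid carrier genes 5 rose and 0 fell.

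Among 28 cytosolic chaperone genes 1 rose and 10 fell, but 1 and 0 without old replicate 3, 1 and 5 without middle-aged replicate 2 and 1 and 6 without old replicate 4. The 6 small heat shock protein genes were divided, 2 higher and 2 lower (0 and 1 without old replicate 3). Hsp26 read 12.77, 12.86, 12.07 and 12.48 in old flies, against 13.16, 13.32, 13.10 and 13.22 in middle-aged flies, and fell by 0.65 on the log2 scale (adjusted p = 0.00418 from limma). Genes of folding in the endoplasmic reticulum had 3 of 29 higher and 7 lower (1 and 2 without old replicate 3, 5 and 5 with arrays centred on their medians), and Ire1, the sensor of unfolded proteins there, fell by 0.62 on the log2 scale (adjusted p = 0.00603), as did a second probe set of it. Autophagy genes had 3 of 27 higher and 8 lower (2 and 1 without old replicate 3, 2 and 2 without old replicate 4 or middle-aged replicate 2, 2 and 4 without middle-aged replicate 4), and with arrays centred on their medians 3 were higher and 1 lower.

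Hormone pathways held single genes with clear changes. Of 25 genes of insulin and TOR signalling 4 rose and 4 fell (3 in all without old replicate 3 or middle-aged replicate 2, 4 in all without old replicate 4 or middle-aged replicate 4), against 2 and 9 when arrays were centred on the neuron list and 6 and 2 when centred on their medians. ImpL2, a secreted protein that binds insulin-like peptides and lowers insulin signalling, read 10.63, 9.57, 10.67 and 10.68 in old flies, against 9.24, 9.07, 9.07 and 9.22 in middle-aged flies. Old replicate 2 lay about 1 unit below the other old pools but above all middle-aged ones, and the fold was 2.36 (adjusted p = 0.000512 from limma). Of 43 genes of ecdysone, juvenile hormone and nuclear receptors 5 rose and 4 fell (2 and 0 without old replicate 3, 3 and 2 without middle-aged replicate 4, 4 and 7 with the neuron centring). Kr-h1, a zinc finger gene induced by juvenile hormone, read 8.23, 8.63, 8.93 and 8.78 in old flies, against 7.21, 6.98, 7.74 and 7.07 in middle-aged flies, and rose 2.63-fold (adjusted p = 0.000325).

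Of 20 clock genes 6 rose and 4 fell (2 and 2 without old replicate 3, 4 and 2 without old replicate 4, 3 and 5 with the neuron centring). The gene tim, whose product represses the transcription factor made by Clk, read 7.62, 7.21, 7.67 and 7.12 in old flies, against 8.69, 8.54, 8.79 and 8.71 in middle-aged flies. Both ages formed tight groups about 1 unit apart (-1.28 ± 0.19), and a second probe set of tim fell too. Clk read 6.90, 6.85, 7.49 and 7.53 in old flies, against 6.08, 5.83, 6.50 and 6.42 in middle-aged flies, a rise of 0.98 ± 0.26 (adjusted p = 0.00653 from limma). The hour at which pools were frozen is not given in the sources used here, and these genes cycle over the day.

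**Figure D4:**
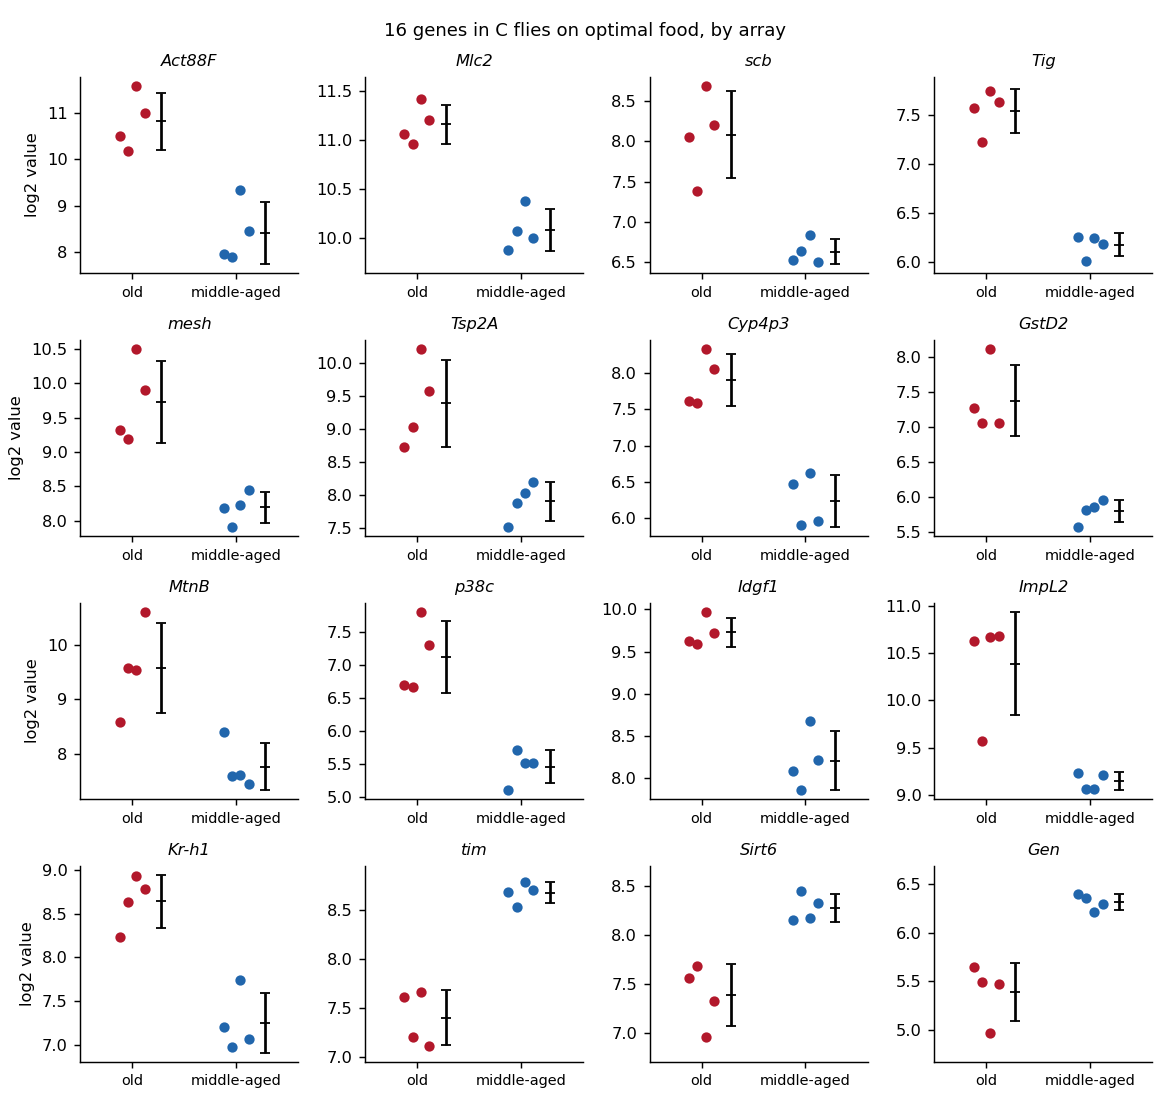
Log2 value of 16 genes in each pool, old flies on the left and middle-aged flies on the right of each panel, with the mean and standard deviation of the 4 pools beside the points, on axes that do not start at 0. For Tig the old pools read 7.23 to 7.75 and the middle-aged pools 6.01 to 6.26, and for tim the old pools read 7.12 to 7.67 and the middle-aged pools 8.54 to 8.79.

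Lists of the nucleus and the list of mRNA decay were among those with the most falls. Of 46 genes of RNA polymerase II and its general factors 31 fell, of 18 of RNA polymerases I and III 12, of 26 of the Mediator complex 14, and of 62 of Polycomb, trithorax and chromatin remodelling 37, with 0 higher in each. Of 39 genes of the nuclear pore and transport through it 27 fell, of 36 of mRNA decay 17, and of 46 of DNA repair 32, again with 0 higher. The medians of these 7 lists ran from -0.26 to -0.48. Like the germline mean given above, the mean of each of these lists was lower in every old pool than in any middle-aged pool. For DNA repair it was 7.674 to 8.085 in old pools, against 8.278 to 8.407 in middle-aged pools. What the germline shift contributes to these lists was not tested. Without old replicate 3 the counts were 10, 3, 6, 9, 5, 5 and 9 in this order, and without old replicate 4 they were 5 for RNA polymerases I and III, 24 for chromatin, 16 for the nuclear pore, 11 for mRNA decay and 18 for DNA repair. Without middle-aged replicate 2 they were 6 for RNA polymerases I and III, 11 for mRNA decay and 20 for DNA repair, and 7 for RNA polymerases I and III without middle-aged replicate 1 or 4.

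Sirt6, a deacetylase that acts on histones, read 7.56, 7.68, 6.96 and 7.33 in old flies, against 8.15, 8.45, 8.17 and 8.33 in middle-aged flies, a fall of -0.89 ± 0.18 (adjusted p = 0.000719 from limma). Old replicate 3 was the lowest pool, but no old pool reached the middle-aged range. The histone demethylase gene Kdm4A differed by -0.68 ± 0.15 and Caf1-55, a histone chaperone shared by several complexes, by -0.66 ± 0.16. For transcription, Polr2G, a subunit of RNA polymerase II, differed by -0.61 ± 0.16, MED27 of the Mediator by -0.62 ± 0.16, and Brf, a factor of RNA polymerase III, by -0.59 ± 0.15. At the nuclear pore, Kap-alpha3, an importin alpha, read 6.96, 6.82, 6.63 and 6.66 in old flies, against 7.51, 7.51, 7.33 and 7.22 in middle-aged flies (adjusted p = 3.99e-05). Its fall was modest, -0.63 ± 0.10, and uniform over the pools. The pore gene Nup37 read 8.23, 8.79, 8.17 and 7.99 in old flies, against 8.72, 9.28, 9.09 and 9.14 in middle-aged flies, with old replicate 2 above middle-aged replicate 1 (-0.76 ± 0.19). In DNA repair, Gen, an endonuclease that cuts branched DNA, read 5.65, 5.49, 4.97 and 5.47 in old flies, against 6.39, 6.35, 6.21 and 6.29 in middle-aged flies (adjusted p = 0.00493), and PolI, the translesion DNA polymerase iota, fell to 0.637 of its middle-aged level.

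Falls were also more frequent than rises in some other lists. Of 53 ubiquitin ligase and cullin genes 3 rose and 22 fell (2 and 5 without old replicate 3, 2 and 9 without middle-aged replicate 2, 2 and 14 without old replicate 4 or middle-aged replicate 4). Ubr1, which recognises the ends of proteins to be degraded, differed by -0.65 ± 0.16, while ben, a ubiquitin-conjugating enzyme, rose by 0.75 ± 0.19. Of 43 genes of mitochondrial import, dynamics and DNA 14 fell and 0 rose (4 without old replicate 3). Of 14 genes of Hedgehog signalling 2 rose and 9 fell (0 and 3 without old replicate 3, 2 and 4 without old replicate 4, 1 and 6 without middle-aged replicate 1, and 0 and 7 without middle-aged replicate 2 or 4), and the Hedgehog co-receptor gene ihog read 9.04, 9.19, 8.32 and 8.65 in old flies, against 9.45, 9.64, 9.45 and 9.56 in middle-aged flies (-0.73 ± 0.18). Of 19 genes of Hippo and Fat signalling, which limits growth, 1 rose and 8 fell (1 and 2 without old replicate 3, 1 and 3 without old replicate 4 or middle-aged replicate 2, 1 and 4 without middle-aged replicate 4). The kinase genes Tao and hpo, which act in sequence, differed by -0.72 ± 0.19 and -0.48 ± 0.11 and fell. Fmr1 and lilli, which are on none of the lists, were among the larger falls. Fmr1, the fly relative of the fragile X gene, differed by -0.93 ± 0.24, but another probe set of Fmr1 was called in the opposite direction, so the gene's direction rests on the probe set. The transcription elongation gene lilli read 5.61, 5.08, 4.76 and 5.03 in old flies, against 5.88, 6.42, 6.27 and 5.89 in middle-aged flies, a fall of -0.99 ± 0.23 (adjusted p = 0.00249 from limma), and another of its probe sets fell too.

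Translation and nucleotide genes held changes in both directions. Of 50 translation initiation and elongation factors 1 rose and 7 fell (1 and 3 without old replicate 3 or middle-aged replicate 2 or 4, 1 and 4 without old replicate 4, 3 and 3 with arrays centred on their medians). The one that rose, eEF1alpha2, a form of elongation factor 1 alpha of adult tissues, read 11.67, 11.21, 11.85 and 11.44 in old flies, against 10.43, 10.19, 10.37 and 10.34 in middle-aged flies, a fold of 2.32 (adjusted p = 1.27e-05 from limma). The cap-binding repressor gene eIF4EHP differed by -0.82 ± 0.19, though another of its probe sets was called in the opposite direction. Of 29 genes of nucleotide synthesis and breakdown 6 rose and 8 fell (2 and 2 without old replicate 3, 4 and 5 without old replicate 4, 7 and 6 with arrays centred on their medians). Ctps, which makes CTP, read 9.35, 9.06, 8.40 and 8.88 in old flies, against 9.62, 9.69, 9.47 and 9.74 in middle-aged flies, a fall of -0.70 ± 0.17. The gene su(r), whose product starts the breakdown of pyrimidines, read 7.15, 7.59, 8.08 and 8.15 in old flies, against 6.21, 6.51, 6.83 and 6.60 in middle-aged flies, a rise of 1.20 ± 0.26 (adjusted p = 0.00159).

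With the germline mean of each array as a covariate, 146 genes (1.22%) were called, 1.03% of all genes higher and 0.192% lower, and 133 of them were called in the same direction without it. The germline mean separates the ages, so this fit asks for the age difference beyond it. In it the rises of CG14499 (4.64), CG43133 (3.18), Npc2e (3.0), Mur29B (1.80), Takl1 (1.56), Act88F (1.37), GstD2 (1.23), p38c (1.15), Cyp4p3 (1.07), Cpr62Bb (1.01), scb (0.93), Arpc3B (0.71), eEF1alpha2 (0.69), tok (0.69), Idgf3 (0.64) and Ugt36A1 (0.50) remained called. So did the falls of tim (-1.87), mag (-1.73), Cyp4d21 (-1.09), ninaD (-1.02) and Kap-alpha3 (-0.33). Several lists lost nearly all their shift: the medians of muscle and basement membrane were 0.05 and 0.07, that of cytochrome P450 was -0.02, and those of the 7 lists of the nucleus and mRNA decay lay between -0.07 and 0.00. Other lists kept part of theirs. The median was 0.45 for maltases and amylases (0.605 without the covariate), 0.11 for haemocytes (0.31) and 0.11 for JNK and TNF signalling (0.34).

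The ageing of C flies was next set against that of SR flies on the same food, by the test of the age difference in C minus that in SR. This test and those against the other foods below share the 8 arrays of C flies on optimal food. It called 785 genes (6.55%), 314 with the higher age difference in C (2.62%) and 471 with the lower (3.93%). The number of called probe sets, 996 (5.26%), was 66 without C old replicate 3, and ranged from 53 without SR middle-aged replicate 4 to 2188 without SR old replicate 2. Between the ages of SR flies, 145 genes (1.21%) differed. Of the 32 muscle genes, 11 had the higher difference in C (4 without C old replicate 3, and 3 to 18 over all arrays left out), and the list's median age difference was 0.58 in C and -0.11 in SR. Act88F averaged 10.81 in old and 8.40 in middle-aged C flies, and 8.27 ± 0.13 in old and 9.19 ± 0.24 in middle-aged SR flies (SD, n = 4). The gap between the age differences was 3.34 ± 0.50 (adjusted p = 0.000689 from limma), and the call held with each array left out (adjusted p up to 0.00444). The SR mean was the higher one in middle age and the C mean in old age. CG43133 differed by 3.30 ± 0.54 between the lines, with 4.34 in old and 4.48 in middle-aged SR flies. Send1 differed by 2.52 ± 0.51, and tim, at 7.81 in old and 7.59 in middle-aged SR flies, by -1.50 ± 0.27 (adjusted p = 0.00603), both also with every array left out.

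Other genes whose age effect differed between the lines lost that call when an array was left out. TpnC73F (1.29 ± 0.37), Tm2 (1.23 ± 0.34), Tig (1.13 ± 0.32) and scb (1.05 ± 0.29) were called, with adjusted p of 0.0379 to 0.041 in limma, and none of the 4 was called without C old replicate 3 (adjusted p of 0.111 to 0.117). The same held for ImpL2 (1.54 ± 0.34) and Kr-h1 (1.61 ± 0.37), with adjusted p of 0.0524 and 0.06 without that array. Sirt6 (-1.13 ± 0.25) and lilli (-1.47 ± 0.32) had adjusted p of 0.06 and 0.0524 without it. Neither ImpL2 nor Sirt6 was called for age in SR flies, where ImpL2 had 9.73 ± 0.26 in old and 10.03 ± 0.39 in middle-aged SR flies, and Sirt6 had 7.67 ± 0.29 in old and 7.43 ± 0.18 in middle-aged flies. Of 31 basement membrane genes 5 had the higher difference in C (0 without C old replicate 3, 0 to 7 over all arrays left out). Of 27 photoreceptor and phototransduction genes 10 did (2 without that array, 2 to 11 over all arrays).

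Against malnutrition, the test of the age difference on optimal food minus that on malnutrition called 829 genes (6.92%), 560 with the higher difference on optimal food (4.67%) and 269 with the lower (2.25%). The number of called probe sets, 986 (5.20%), was 289 without old replicate 3 on optimal food and ran from 237 without old replicate 1 on malnutrition to 2173 without old replicate 1 on optimal food. Between the ages on malnutrition, 132 genes (1.10%) differed. CG14499 averaged 11.46 in old and 6.51 in middle-aged flies on optimal food, and 6.38 ± 0.36 (n = 3) in old and 6.09 ± 1.13 (n = 4) in middle-aged flies on malnutrition. The gap between these differences was 4.66 ± 0.81 (adjusted p = 0.000541 from limma). Npc2e was 5.89 in old and 6.64 in middle-aged flies on malnutrition, and its gap was 4.27 ± 0.65 (adjusted p = 0.000136). Mal-A4 (2.84 ± 0.52), Mur29B (2.82 ± 0.51), Send1 (3.09 ± 0.54), etaTry (1.95 ± 0.39), Takl1 (1.89 ± 0.34), Cyp4p3 (1.67 ± 0.33) and Ugt36A1 (0.71 ± 0.14) had the higher age difference on optimal food, Kap-alpha3 (-0.67 ± 0.15) the lower, and for all these genes the call held with each array left out.

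Act88F was high at both ages on malnutrition, at 11.28 ± 0.78 in old and 11.29 ± 0.54 in middle-aged flies, and its age difference on optimal food was the higher by 2.41 ± 0.52 (adjusted p = 0.00578 from limma, up to 0.0519 with an array left out). Of the lists, oxidative phosphorylation had 19 of 55 genes with the higher age difference on optimal food (34.5%), but 3 without old replicate 3 on optimal food, 1 with arrays centred on the neuron list, and 1 to 29 over all arrays left out. Its median age difference was 0.17 on optimal food and -0.18 on malnutrition. Of 31 gut proteases 7 had the higher difference on optimal food (4 without old replicate 3, 2 to 13 over all arrays left out), with medians of 0.36 and -0.51, and of 21 genes of the Malpighian tubules 6 (3 without old replicate 3, 3 to 9 over all arrays), with medians of 0.34 and -0.28. The 7 protease genes include Ser12 of the spermathecae. The medians of the 7 lists of the nucleus and mRNA decay, -0.48 to -0.26 on optimal food, lay between -0.04 and 0.01 on malnutrition.

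Against overfeeding the same test called 6 genes (0.0501%), all of them with the higher age difference on optimal food, while 1016 probe sets had an unadjusted p under 0.05. They included CG14499 (4.32 ± 0.81, adjusted p = 0.0204 from limma), Npc2e (3.56 ± 0.65, adjusted p = 0.0204), Ugt36A1 (0.75 ± 0.14, adjusted p = 0.0259) and Takl1 (1.66 ± 0.34, adjusted p = 0.0488). None of the 4 was called without old replicate 3 on optimal food (adjusted p of 0.0515 to 0.137), and the number of called probe sets, 7 (0.0369%), ran from 2 to 32 over all arrays left out. Between the ages on overfeeding, 193 genes (1.61%) differed. Act88F rose there as well, at 9.76 ± 0.19 (n = 3) in old and 6.92 ± 0.27 (n = 4) in middle-aged flies (2.84 ± 0.38, adjusted p = 3.85e-05), and so did Mlc2 (1.44 ± 0.22, adjusted p = 0.000216), Kr-h1 (1.26 ± 0.28) and Send1 (1.61 ± 0.39). The muscle list's median was 0.58 on both foods. The age difference on optimal food minus that on overfeeding was -0.43 ± 0.52 for Act88F (adjusted p = 0.912), which does not show that the foods act alike.

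**Figure D5:**
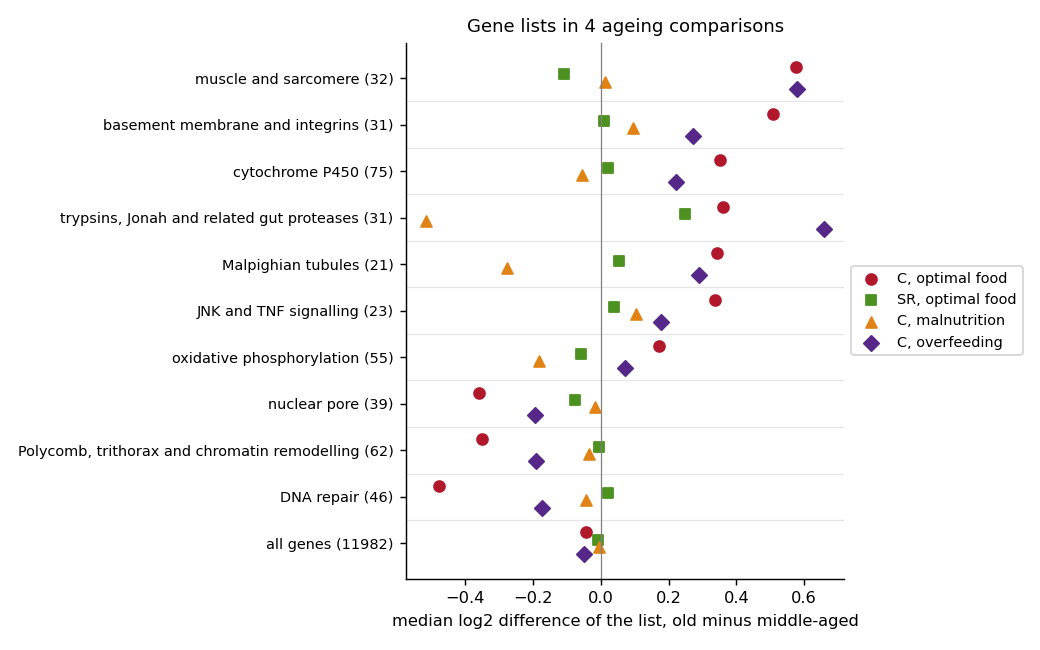
Median log2 difference, old minus middle-aged, of 10 gene lists and of all genes (numbers of genes in parentheses), with 1 symbol each for C flies on optimal food, SR flies on optimal food, C flies on malnutrition and C flies on overfeeding. For muscle the symbols lie at 0.58, -0.11, 0.01 and 0.58 in this order, and for gut proteases at 0.36, 0.25, -0.51 and 0.66.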

How the data were processed

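Whole virgin females were read on Affymetrix Drosophila arrays. The authors deposited log2 values made with RMA (background correction, quantile normalization, probe summary), for which the submitters' processing notes name R 2.7.0, and left out arrays of unsatisfactory quality. The arrays were not normalized again. All 18952 probe sets have a value on each of the 46 arrays. The values carry no depth, so the number of arrays limits the precision. The platform annotation gave 1 symbol for 13647 probe sets, several for 402, and did not list 4903; 13544 were matched to RefSeq. A gene was represented by its probe set of highest mean over all arrays (11982 genes). Of the 317 genes considered for naming, 39 had 55 other probe sets, of which 13 were called in the same direction and 2 in the opposite one.

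With limma 3.58.1 (R 4.3.3), a linear model with a mean for each of the 12 groups was fitted to the 46 arrays (lmFit, eBayes, two-sided), and p-values were adjusted after Benjamini and Hochberg over all probe sets. Python 3.11.15 with numpy 2.4.6 and pandas 2.3.3 did the rest. The members and the 69 gene lists were chosen with earlier results of these data known. Genes could be named if among the 20 highest or lowest changes without overlap, the largest called members of a list, the 6 highest or lowest in each difference between comparisons, or the 8 highest or lowest with the germline covariate; the 84 described were picked from these after their values were seen, nearly all because their call held with each array left out. Where a gene is said to be called with each array left out, this means every array of the groups compared.

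Same-numbered arrays deviated together (correlation of deviations from the group means over all probe sets 0.3436 to 0.4015), and none correlated better with another number, so the numbers pair these arrays on the data's evidence; the labels give no source of the pairing. The replicate number as a block was fitted over all arrays, so it joins arrays of the same number in every group. Other alternatives were centring on the array median or the neuron list, and the germline mean as a covariate. Array weights, a trended robust variance, a mean of at least 5 and a change of at least 0.5 were others. Further fits used only the groups compared or left out each array. The array median was taken over the 9743 probe sets with a mean of at least 5. In simulated arrays with 100 of 18952 probe sets changed per size, 71% of changes of 0.5 and 96% of changes of 1 were called for age. Noise there was independent between probe sets and of the same spread at both ages, with no shift of a whole array. The measured old pools spread more (median standard deviation 0.218 against 0.136), so these shares may not hold for them. Promoter sequences were not used here.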

Additional observations from a re-analysis of the deposited data

Results flagged for a closer look

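In 20 of 306 groups of 4 pools, 1 pool lay far from the other 3, where chance gives about 1 in 20 groups. The gap to the nearest pool as a share of the group's whole range is given in parentheses. Among the old pools, replicate 3 was the highest in the means of the photoreceptor (0.91), midgut (0.892), trachea (0.971), organic anion and sugar transporter (0.956), junction (0.935) and JNK and TNF lists (0.928) and for ben (0.867), and the lowest for Tao (0.887). Old replicate 2 was the lowest for ImpL2 (0.961) and Ugt36A1 (0.97), old replicate 1 the lowest in the mean of the peroxisome list (0.973), and old replicate 4 the highest in that of the chorion and vitelline membrane list (0.843). Among the middle-aged pools, replicate 4 was the highest for CG14499 (0.942) and Takl1 (0.87), replicate 3 for Ser12 (0.978) and in the mean of the spermatheca list (0.924), and replicate 1 for Lpin (0.886). Middle-aged replicate 1 was the lowest in the means of the tricarboxylic acid cycle (0.835) and junction lists (0.836), and middle-aged replicate 2 the lowest for Cyp4d21 (0.855).

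The age difference of 37 of the 84 genes described differed between the lines on optimal food by limma's test of the difference (log2, C minus SR). It was higher in C for CG14499 (2.62), CG43133 (3.30), Act88F (3.34), TpnC73F (1.29), Tm2 (1.23), scb (1.05), Tig (1.13), cora (0.98), Nep2 (1.27), Send1 (2.52), Ser12 (1.66), moody (0.92), cac (1.25), Cyp4p3 (1.38), Idgf3 (1.05), Lip4 (1.13), Lpin (1.06), Apoltp (1.10), cype (0.43), ImpL2 (1.54) and Kr-h1 (1.61). It was lower in C for Ctr1A (-1.04), Dcp-1 (-0.61), Hsp26 (-0.81), Ire1 (-0.83), tim (-1.50), eIF4EHP (-1.18), Polr2G (-0.72), Sirt6 (-1.13), Kdm4A (-0.81), Caf1-55 (-0.85), Nup37 (-0.93), Kap-alpha3 (-0.49), Tao (-1.16), hpo (-0.70), Fmr1 (-1.23) and lilli (-1.47). This test called 996 probe sets with all arrays and 66 without C old replicate 3. Of the 37 genes, 33 lost this call when at least 1 array of the groups compared was left out, and CG43133, Act88F, Send1 and tim did not.

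On optimal food against malnutrition 23 genes differed in C flies. The age difference was higher on optimal food for CG14499 (4.66), Npc2e (4.27), Mur29B (2.82), CG43133 (2.29), Act88F (2.41), GATAe (1.53), Send1 (3.09), Ser12 (1.50), Gs2 (1.51), Cyp4p3 (1.67), tok (1.30), etaTry (1.95), Mal-A4 (2.84), cype (0.34), Kr-h1 (1.47), Clk (1.39), Cpr62Bb (1.04), Takl1 (1.89) and Ugt36A1 (0.71). It was lower on optimal food for tim (-0.96), Sirt6 (-0.99), Kdm4A (-0.72) and Kap-alpha3 (-0.67). Of these 23 genes, 13 lost the call when at least 1 array was left out. Against overfeeding 4 genes differed, all with the higher age difference on optimal food: CG14499 (4.32), Npc2e (3.56), Takl1 (1.66) and Ugt36A1 (0.75). Each of the 4 lost this call when at least 1 array was left out.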

How the results depend on the processing

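Age in C flies on optimal food called 4936 probe sets, and 1905 to 5187 with any one array left out, the lowest without old replicate 3. The count was 184 with the germline mean as a covariate and 2538 when a change of at least 0.5 was required as well. With only the groups compared in the fit the count was 3630, 1688 higher and 1942 lower. The share higher was then 46.5%, against 37.5% with all arrays in the fit. The count was 5090 with the replicate number as a block over all arrays (1903 higher and 3187 lower), and no call of the 84 genes described changed. That block joins arrays of the same number in every group, whereas the pairing was seen among the C arrays on optimal food. What pairing those arrays alone would change was not tested. The covariate ended the calls of 61 of the 84 genes, and centring on the neuron list those of 2. Centring on the array median ended that of mag, and a fit of only the groups compared that of Cyp4d21. The 84 were picked after their values were seen, nearly all because their call held with each array left out. Few losses among them therefore do not show how stable other genes are, and Eno and Tpi had no call to lose. Centring on the neuron list turned 20 of 42 positive list medians negative, and centring on the array median turned 10 of 27 negative ones positive. Lists with more calls higher than lower had more lower in 12 cases after neuron centring, and 2 turned the other way after median centring.

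Age by line called 996 probe sets, and 53 to 2188 with an array left out, 3348 with array weights, 372 centred on the neuron list, 11 with the germline covariate and 2153 among probe sets with a mean of at least 5. Age on optimal food against malnutrition called 986, and 237 to 2173 with an array left out, 570 centred on the neuron list, 194 with the covariate, 1573 at a mean of at least 5 and 388 with only the groups compared. Against overfeeding 7 were called, and 2 to 32 with an array left out, 28 with array weights, 11 centred on the neuron list and 0 with only the groups compared. The causes were not tested.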

Other observations

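Several further gene groups changed between the ages in few members or in both directions. Of 51 odorant-binding protein genes, which carry odours to sensory neurons and of which 23 stayed under 5 on all arrays, 7 were higher in old flies and 0 lower (2 without old replicate 3). Cathepsins and other lysosomal enzymes, which digest proteins and lipids inside the cell, had 9 of 31 genes higher and 3 lower (5 and 2 without old replicate 3), while of 31 genes of the vacuolar ATPase, the proton pump of the lysosome, 1 was higher (2 called without old replicate 1 or 2, 0 without any one of old replicates 3 and 4 and middle-aged replicates 1, 2 and 4). Fatty acid oxidation had 5 of 17 higher and 0 lower (2 without old replicate 3 or 4, 3 without middle-aged replicate 2 or 4). Sugar, glycogen and trehalose metabolism had 4 of 23 higher and 2 lower (2 and 3 with the neuron centring), the tricarboxylic acid cycle 2 and 1 of 19 (0 in all without old replicate 4 or middle-aged replicate 1 or 2, 1 without any other except old replicate 1, and 0 higher and 2 lower with the neuron centring), elongation and desaturation of very long chain fatty acids 2 and 0 of 13 (4 without old replicate 1, 1 without any one of old replicates 3 and 4 and middle-aged replicates 2 and 3), amino acid metabolism 3 and 3 of 38 (7 and 3 without old replicate 1, 2 and 1 without old replicate 3 or middle-aged replicate 2, 2 and 7 with the neuron centring and 6 and 1 with arrays centred on their medians), and the peroxisome 3 and 3 of 16 (1 and 0 without old replicate 3).

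Pathways of development were also mixed. Of 19 Notch genes 1 was higher and 5 lower (0 and 1 without old replicate 3, 3 and 3 with arrays centred on their medians), and of 24 genes of EGFR, Ras and MAPK signalling 6 were higher and 5 lower (3 and 1 without old replicate 3, 5 and 2 without old replicate 4, 5 and 8 with the neuron centring). None of 12 Wnt genes was called by limma, while 3 had an unadjusted p under 0.05 and 1 was called lower without any one of old replicates 1 and 2 and middle-aged replicate 3.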
